A study of Mus musculus with 6 samples.

Results

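The genes described here belong to families that add, remove or read lysine acetylation on histones and other proteins. The list holds 35 of the 55401 genes in the deposited table. They were taken by symbol, in 4 classes: 13 acetyltransferases, 11 classical deacetylases, 7 sirtuins and 4 bromodomain readers. All 35 were found and all 35 passed the filter on low counts. Polyadenylated RNA had been sequenced from mouse glomeruli, the filtering units of the kidney, in 3 libraries labelled DKD and 3 labelled Control. DKD stands for diabetic kidney disease in the submitters' series title. The labels give no strain, age, sex, diabetes model or treatment, and both words stand in their field for genotype. Whether the 3 libraries of a group are 3 animals is not stated, so the p-values below cover library-to-library spread, which may be technical.

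Acetyltransferases move an acetyl group from acetyl-CoA onto histone lysines, which loosens the hold of the histone tail on DNA. Classical deacetylases remove it with a zinc ion in the active site, and sirtuins remove it, or other acyl groups, at the cost of NAD. Bromodomains bind the acetylated lysine and bring transcription machinery to it. In kidney disease these enzymes are studied as drug targets, since inhibitors exist for deacetylases and bromodomains and activators for sirtuins.

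The sequences below are promoter windows for the single gene that passed the test, Hdac6, and for a pair of sirtuins measured in opposite directions, Sirt2 and Sirt1. They come from RefSeq on build GRCm38.p6, whereas the counts were made on GRCm39. Each runs 5′ to 3′ along the gene's own strand from 250 bases before the annotated start to 50 bases after it. Capitals mark every match to the words searched on both strands, which were TATAAA (the TATA word), CCAAT (the CAAT box), GGGCGG (the GC box), CACGTG (the E-box), TGACGTCA (the cAMP response element) and the palindromic NRF1 motif. Matches that overlap are joined.

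Hdac6 (chrX:7947840-7948139, minus strand): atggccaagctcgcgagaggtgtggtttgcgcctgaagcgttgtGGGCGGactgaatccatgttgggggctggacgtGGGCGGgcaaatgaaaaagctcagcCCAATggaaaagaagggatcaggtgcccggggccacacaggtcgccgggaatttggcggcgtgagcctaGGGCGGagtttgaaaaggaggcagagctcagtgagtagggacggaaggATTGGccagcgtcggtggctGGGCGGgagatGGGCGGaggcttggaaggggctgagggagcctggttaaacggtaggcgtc
Sirt2 (chr7:28766502-28766801, plus strand): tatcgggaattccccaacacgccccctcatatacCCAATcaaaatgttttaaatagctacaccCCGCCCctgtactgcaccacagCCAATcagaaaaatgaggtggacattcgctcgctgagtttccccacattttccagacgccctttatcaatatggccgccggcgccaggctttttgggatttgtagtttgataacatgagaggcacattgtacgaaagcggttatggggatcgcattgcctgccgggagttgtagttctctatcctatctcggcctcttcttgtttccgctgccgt
Sirt1 (chr10:63338986-63339285, minus strand): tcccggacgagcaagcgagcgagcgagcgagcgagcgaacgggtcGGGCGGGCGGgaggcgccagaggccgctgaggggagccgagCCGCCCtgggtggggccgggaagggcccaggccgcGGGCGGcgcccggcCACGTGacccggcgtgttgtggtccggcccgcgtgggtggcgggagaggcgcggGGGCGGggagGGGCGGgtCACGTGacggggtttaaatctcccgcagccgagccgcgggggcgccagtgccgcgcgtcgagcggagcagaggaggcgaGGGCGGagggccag

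The Hdac6 window held 5 GC boxes, 2 CAAT boxes and 20 CpG dinucleotides, and 62.0% of its bases were G or C. The Sirt2 window held 1 GC box, 2 CAAT boxes and 16 CpGs at 50.0% G or C. The Sirt1 window was the richest of these, with 7 GC boxes, 2 E-boxes and 47 CpGs at 79.0% G or C. Windows were on file for 29 of the 35 genes, 42 windows in all, and their median was 62.0% G or C and 21.5 CpGs, against 52.7% and 7.0 CpGs over all 32851 promoter windows. A GC box occurred in 64.3% of the members' windows and in 35.7% of all windows, and an E-box in 9.52% and 7.15%. The TATA word occurred in 4.76% of the members' windows, against 13.6% of all windows, and the CAAT box in 33.3% and 37.4%. The cAMP response element occurred in 0 of the members' windows, against 1.79% of all windows, and the NRF1 motif in 4.76% and 0.971%. These matches describe letters in the windows only.

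The libraries held 71154026 to 75328417 counts in DKD and 72451052 to 83576494 counts in Control. Levels below are in CPM, the count scaled to library size with TMM factors, and each ± beside a level is an SD over 3 libraries. Markers of the proximal tubule, which lies outside the glomerulus, held 0.999% to 2.04% of the counts in DKD and 2.09% to 3.62% in Control (9 markers, 0 of them at 0 in any library). All 9 had a lower mean CPM in DKD. So had 7 of 8 podocyte, 7 of 7 glomerular endothelial and 6 of 6 mesangial markers. A higher mean CPM in DKD was found for 4 of 4 parietal epithelial, 4 of 4 erythrocyte and 5 of 7 leukocyte markers. Of 6 markers from nephron segments beyond the proximal tubule, 2 were higher. The erythrocyte, leukocyte and distal shares of the counts overlapped between groups. The 8 podocyte markers, which should define glomeruli, held only 0.0297% to 0.0419% in DKD and 0.0408% to 0.0727% in Control, and 7 endothelial markers held 0.0147% to 0.0273% and 0.0259% to 0.0473%. The 6 mesangial and smooth muscle markers held 0.0218% to 0.0316% in DKD and 0.0219% to 0.0490% in Control. The 4 genes taken as parietal epithelial markers (Cldn1, Pax8, Krt8 and Cd9) held 0.0394% to 0.0530% in DKD and 0.0234% to 0.0372% in Control. Whether their counts came from parietal cells was not tested. Mitochondrially encoded genes held 15.3% to 18.7% of the counts in DKD and 10.6% to 12.2% in Control. The proximal tubule, parietal and mitochondrial ranges did not overlap between groups. The part of these shares in the values below was not tested, and in bulk RNA fewer cells of a type cannot be told apart from less RNA per cell. Control replicate 3 correlated less with its group (0.954 and 0.956 on log CPM) than Control replicates 1 and 2 with each other (0.980). Among Control libraries, replicate 3 also had the highest proximal tubule (3.62%) and erythrocyte (0.0581%) shares. Its podocyte (0.0408%), endothelial (0.0259%), mesangial (0.0219%), parietal (0.0234%), leukocyte (0.0185%) and distal (0.473%) shares were the lowest of that group. The part of these shares in its values below was not tested.

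Of the 35 genes, 1 passed the edgeR quasi-likelihood test at an adjusted p under 0.05, against 1.16% of all 19717 genes tested. It was higher in DKD, as were 0.725% of all genes by the same call. At an unadjusted p under 0.05 there were 9 (25.7%), against 22.6% of all genes. Of these 9, 2 were higher and 7 lower in DKD, against 11.8% and 10.9% of all genes. DKD and Control libraries were fully separated for 14 of the 35 (6 higher and 8 lower), against 30.7% of all genes (15.5% higher and 15.2% lower). Counting differences of any size, 13 genes had a higher fitted level in DKD, against 50.2% of all genes, and 22 a lower one, against 49.8%, with a median log2 fold change (DKD over Control) of −0.10, against 0.003 for all genes. DESeq2 called 3 of the 35, against 13.7% of the genes it tested, and limma-voom called 1. As a share of the list, the count by the unadjusted p lay near that of all genes. Whether the list departs from all genes in separation or in either direction was not tested.

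**Figure D1:**
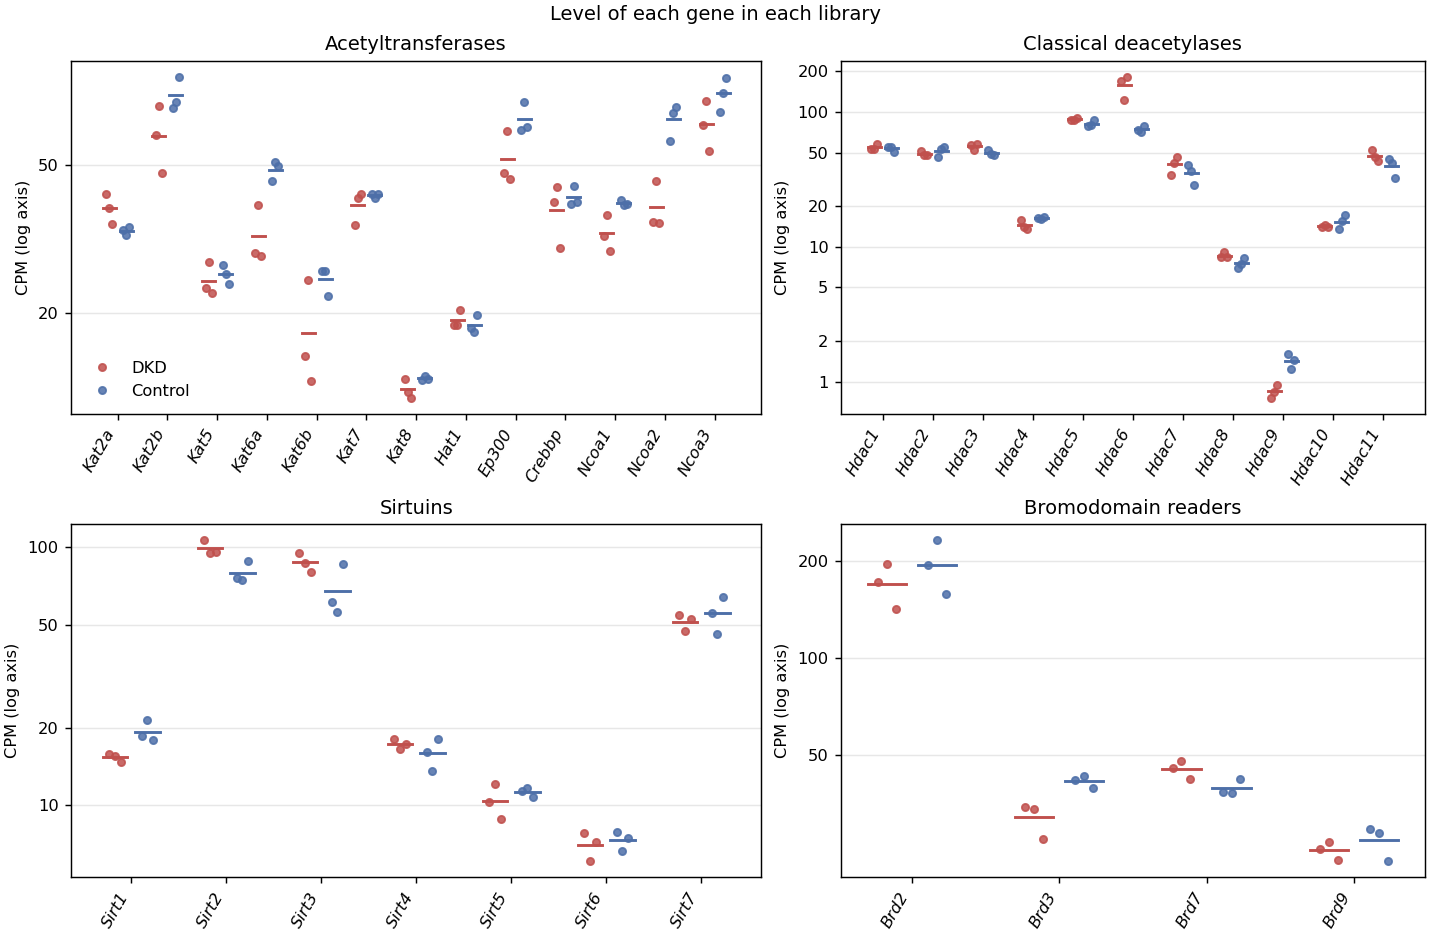
Level of each of the 35 genes in CPM on a log axis, with 1 point per library (red DKD, blue Control) and a bar at the mean of 3 libraries. Hdac6 is the gene whose groups stand furthest apart upwards, with all DKD libraries above 121 CPM and all Control libraries below 79 CPM, while Ncoa2, Kat6a and Hdac9 lie lower in every DKD library.

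**Figure D2:**
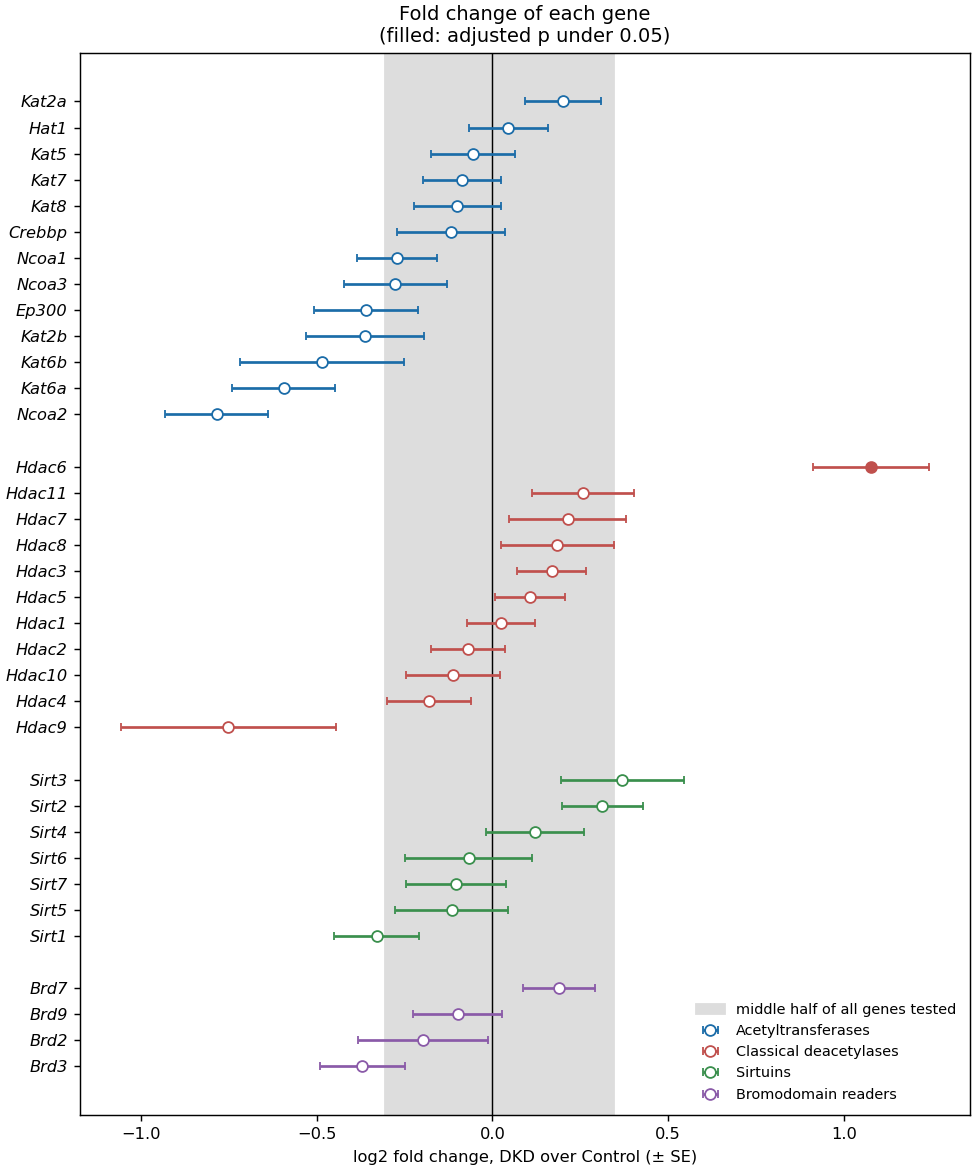
Log2 fold change of each gene, DKD over Control, with its standard error, sorted within the 4 classes. The grey band spans the middle 50% of all genes tested, and the filled point, Hdac6, is the single gene past the threshold.

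Acetyltransferases mostly lay lower in DKD. Of the 13, 11 had a lower and 2 a higher fitted level in DKD, and the class median was −0.27 on the log2 scale. The class median was below 0 under all 18 alternative settings, at −0.39 with library totals and −0.13 with a trend on transcript length removed. By edgeR 0 of the 13 passed and 4 (30.8%) had an unadjusted p under 0.05, all lower, against 10.9% of all genes in that direction. That share of all genes is not matched for transcript length. With the length trend removed, the unadjusted edgeR p stayed under 0.05 for Ncoa2 (0.0040) and Kat6a (0.0186). It was 0.306 for Ep300 and 0.545 for Ncoa1. DESeq2 called 2 (15.4%), Ncoa2 and Kat6a, against 13.7% of the genes it tested. Limma-voom called 0.

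Ncoa2 (ENSMUSG00000005886) encodes a nuclear receptor coactivator of the p160 family, which recruits histone acetyltransferases to steroid and other nuclear receptors. It was measured at 35.04, 45.3 and 34.8 CPM in DKD replicates 1 to 3, against 57.8, 68.9 and 71.6 CPM in Control replicates 1 to 3. Every DKD library lay below every Control library. The log2 fold change was −0.79 ± 0.15 (SE), a ratio of 0.580, with an edgeR adjusted p of 0.0565 and a DESeq2 adjusted p of 0.000508. Over the alternatives its log2 fold change ran from −0.94 to −0.58 and its adjusted p from 0.000508 to 0.179, and 3 of 18 alternatives passed.

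Kat6a (ENSMUSG00000031540), a MYST family enzyme also known as MOZ, was measured at 29.0, 38.8 and 28.4 CPM in DKD, against 45.1, 50.7 and 49.5 CPM in Control. Again no DKD library reached the lowest Control library. The log2 fold change was −0.59 ± 0.15, with an edgeR adjusted p of 0.0839 and a DESeq2 adjusted p of 0.0126. With the length trend removed it was −0.38, the weakest of its values over the alternatives. Its paralogue Kat6b lay at 17.6 ± 6.05 CPM in DKD and 24.7 ± 2.15 CPM in Control, with 24.5 CPM in DKD replicate 2 inside the Control range (log2 fold change −0.49 ± 0.23). The Kat6b value was −0.81 without DKD replicate 2 (edgeR adjusted p 0.0576), −0.31 without DKD replicate 3 and −0.29 with the length trend removed.

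Ep300 (ENSMUSG00000055024) encodes p300, a coactivator acetyltransferase that binds many transcription factors. It was measured at 47.5, 61.7 and 45.6 CPM in DKD, against 62.0, 73.6 and 63.0 CPM in Control, so that DKD replicate 2 came within 1 CPM of the lowest Control library. The log2 fold change was −0.36 ± 0.15, with an edgeR adjusted p of 0.209, and it was −0.13 with the length trend removed. Its close relative Crebbp, the CREB-binding protein, had 37.7 ± 7.08 CPM in DKD and 40.9 ± 2.50 CPM in Control. The Crebbp groups overlapped and the value, −0.12 ± 0.15, had the opposite sign without DKD replicate 3 and with the length trend removed.

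The other p160 coactivators lay lower in DKD by smaller amounts. Ncoa1 had 32.7 ± 3.63 CPM in DKD and 39.5 ± 0.702 CPM in Control with no overlap (log2 fold change −0.27 ± 0.11), and Ncoa3 had 64.2 ± 9.75 and 77.7 ± 8.15 CPM with overlap (−0.28 ± 0.15). With the length trend removed, these values were −0.07 for Ncoa1 and −0.08 for Ncoa3.

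The GCN5 family went both ways. Kat2a, or GCN5, the catalytic subunit of the SAGA coactivator complex, had 38.2 ± 3.46 CPM in DKD and 33.2 ± 0.765 CPM in Control, and each DKD library exceeded each Control library (log2 fold change 0.20 ± 0.11, adjusted p 0.311 by edgeR). The Kat2a value was 0.07 with library totals and 0.05 with the GC trend removed. Kat2b, or PCAF, had 59.8 ± 12.1 CPM in DKD and 76.9 ± 7.97 CPM in Control (−0.36 ± 0.17, adjusted p 0.251). Other transcripts, chiefly the copy Kat2b-ps, hold 14.6% of the 31-base words of Kat2b, so its counts carry that uncertainty.

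The remaining acetyltransferases differed by less. Kat5, the catalytic subunit of the NuA4 complex, had 24.4 ± 2.53 CPM in DKD and 25.4 ± 1.46 CPM in Control. Kat7, which acetylates histone H3 near replication origins, had 38.9 ± 3.96 and 41.4 ± 0.543 CPM. Kat8, which acetylates histone H4, had 12.5 ± 0.755 and 13.4 ± 0.160 CPM. Hat1, which acetylates newly made histone H4, had 19.1 ± 1.03 and 18.6 ± 1.06 CPM. The groups overlapped for each of these 4 genes, whose log2 fold changes ran from −0.10 for Kat8 to 0.05 for Hat1 with standard errors of 0.11 to 0.12. Rnaseh2c lies over 12.1% of the exonic bases of Kat5 on the opposite strand, and whether counting used the strand is not given in the sources used here.

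Within the DKD group the acetyltransferases had a common order. DKD replicate 3 was the lowest of its group for 11 of 13 and DKD replicate 2 the highest for 9 of 13, where these libraries were lowest and highest for 34.7% and 33.9% of all genes tested. The bromodomain readers had the same order, with replicate 3 lowest for 4 of 4 and replicate 2 highest for 3 of 4. The corresponding counts were 4 and 2 of 11 deacetylases and 3 and 1 of 7 sirtuins. The genes share the libraries, so these counts describe the libraries as much as the classes.

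Among the classical deacetylases Hdac6 rose. Hdac6 (ENSMUSG00000031161, on the X chromosome) encodes a mostly cytoplasmic class IIb deacetylase that removes acetyl groups from tubulin and cortactin. It was measured at 169, 122 and 181 CPM in DKD replicates 1 to 3, against 74.1, 71.4 and 78.3 CPM in Control replicates 1 to 3. The highest DKD library was 1.49 times the lowest, and the lowest still exceeded the highest Control library. The raw counts were 11320, 8806 and 12935 in DKD and 6195, 5779 and 5926 in Control. The log2 fold change was 1.08 ± 0.17, a ratio of 2.11, with an edgeR adjusted p of 0.0396 and a DESeq2 adjusted p of 1.4e-06. The value ran from 0.94 to 1.22 over the 18 alternatives, of which 11 passed.

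The Hdac6 call was lost in some fits that leave out 1 library, as were most calls over all genes. Leaving out Control replicate 1, Control replicate 2, DKD replicate 1 or DKD replicate 3 gave edgeR adjusted p-values of 0.147, 0.135, 0.144 and 0.119, although the log2 fold change stayed between 0.96 and 1.07. The same fits called 1, 13, 4 and 10 genes over all genes, against 228 with all libraries. Without Control replicate 3 or DKD replicate 2 Hdac6 passed, at 0.0444 and 0.0377, in fits that called 386 and 298 genes. After removal of the GC trend the edgeR adjusted p of Hdac6 was 0.0522.

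The X chromosome around Hdac6 was looked at next. Xist, which is made from the inactive X chromosome of female cells, was at most 0.209 CPM in DKD and 0.191 CPM in Control. The Y-linked gene Ddx3y lay at 26.1 to 30.4 CPM in DKD and 32.7 to 38.6 CPM in Control. Y-linked Eif2s3y went the other way, at 57.6 to 66.6 CPM in DKD and 49.6 to 56.9 CPM in Control. The groups overlapped for Y-linked Kdm5d and Uty. Low Xist with Ddx3y present was the pattern in all 6 libraries. The 610 X-linked genes tested had a median log2 fold change of 0.009. Of the genes tested that neighbour Hdac6 in the GRCm38 annotation, Timm17b had 0.24 ± 0.13, Pqbp1 0.16 ± 0.12, Slc35a2 −0.26 ± 0.12, Glod5 0.49 ± 0.19, Gm7079 0.15 ± 0.57 and Suv39h1 −0.10 ± 0.16, and none of these 6 passed by edgeR (smallest adjusted p 0.187). Other transcripts hold 0.6% of the 31-base words of Hdac6.

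The class I deacetylases are nuclear enzymes, of which Hdac1 and Hdac2 act in the NuRD and SIN3 corepressor complexes. Hdac1 had 54.7 ± 2.51 CPM in DKD and 53.7 ± 2.48 CPM in Control, Hdac2 had 49.2 ± 1.63 and 51.6 ± 4.65 CPM, and Hdac8 had 8.63 ± 0.411 and 7.59 ± 0.690 CPM. Hdac3, the catalytic subunit of the NCoR complex, had 55.8 ± 3.18 CPM in DKD and 49.6 ± 2.11 CPM in Control. The groups did not overlap for Hdac3 and Hdac8, at log2 fold changes of 0.17 ± 0.10 and 0.19 ± 0.16 (0.03 and 0.06 with library totals), but by edgeR 0 of these 4 passed and 0 had an unadjusted p under 0.05, and DESeq2 called 0. Counts of Hdac1 are uncertain, since other transcripts, chiefly Gm10093, hold 40.0% of its 31-base words.

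Class IIa deacetylases shuttle between cytoplasm and nucleus and hold MEF2 factors in check. Hdac9 (ENSMUSG00000004698) was the least abundant of the 35 genes, at 0.762, 0.845 and 0.939 CPM in DKD, against 1.602, 1.25 and 1.44 CPM in Control. Every DKD library was lower, on raw counts of 51 to 67 in DKD and 101 to 134 in Control. The log2 fold change of Hdac9 was −0.75 ± 0.31, with an edgeR adjusted p of 0.204, and no alternative passed. Hdac4 had 14.5 ± 1.11 CPM in DKD and 16.4 ± 0.368 CPM in Control without overlap (−0.18 ± 0.12, but 0.04 with the length trend removed). Genes on the opposite strand, chiefly Gm26720, cover 22.4% of the exonic bases of Hdac4. Hdac5 had 88.4 ± 0.948 and 82.0 ± 4.78 CPM, a difference of 0.11 ± 0.10 that changed sign with library totals and with the GC trend removed. Hdac7, a deacetylase of endothelial cells among others, had 40.9 ± 6.02 and 35.2 ± 5.84 CPM with overlap (0.21 ± 0.17, and 0.04 with the GC trend removed).

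Hdac10, the polyamine deacetylase, and Hdac11, the single class IV enzyme, complete the class. Hdac10 had 14.2 ± 0.348 CPM in DKD and 15.4 ± 1.87 CPM in Control (−0.11 ± 0.13). Hdac11 had 47.3 ± 4.29 and 39.6 ± 6.17 CPM (0.26 ± 0.14), and genes on the opposite strand, chiefly Gm44002, cover 17.9% of its exonic bases. The groups overlapped for both. Over the 11 deacetylases 7 had a higher and 4 a lower fitted level in DKD, with a median log2 fold change of 0.11 that was −0.02 with library totals, where the median of all genes shifted to −0.13. Measured against the median of all genes, the class median was 0.10 with TMM factors, 0.11 with library totals, 0.046 with the GC trend removed and 0.054 without Control replicate 1.

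Sirtuins stood on both sides of 0. By edgeR 0 of the 7 passed and 2 (28.6%) had an unadjusted p under 0.05, against 22.6% of all genes. DESeq2 and limma-voom called 0. Sirt1 (ENSMUSG00000020063), a nuclear deacetylase of p53, FOXO factors and histones that has been studied as a protective enzyme in podocytes, was measured at 15.9, 15.5 and 14.7 CPM in DKD, against 18.6, 21.4 and 17.9 CPM in Control. All DKD libraries were lower (log2 fold change −0.33 ± 0.12, edgeR adjusted p 0.170, and −0.22 with the GC trend removed). Sirt2 (ENSMUSG00000015149), a mostly cytoplasmic deacetylase of tubulin, was measured at 106, 95.1 and 95.2 CPM in DKD, against 75.9, 74.7 and 87.8 CPM in Control. All DKD libraries were higher (log2 fold change 0.31 ± 0.12, edgeR adjusted p 0.170, and 0.19 with library totals or with the length trend removed).

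Of the mitochondrial sirtuins, Sirt3 (ENSMUSG00000025486), the main deacetylase of the matrix, was measured at 95.1, 86.5 and 80.2 CPM in DKD, against 61.1, 56.0 and 85.6 CPM in Control. Control replicate 3 lay among the DKD libraries and apart from the other Control libraries. The log2 fold change was 0.37 ± 0.18 with an edgeR adjusted p of 0.264, and without Control replicate 3 it was 0.57 with an adjusted p of 0.0639. Genes on the opposite strand, chiefly Ric8a, cover 12.7% of the exonic bases of Sirt3. Sirt4, an inhibitor of glutamate dehydrogenase, had 17.3 ± 0.814 CPM in DKD and 15.9 ± 2.19 CPM in Control. Sirt5, which removes succinyl and malonyl groups, had 10.4 ± 1.59 and 11.3 ± 0.430 CPM. Other transcripts, chiefly of Wdr31, hold 16.3% of the 31-base words of Sirt5.

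The nuclear enzymes Sirt6 and Sirt7 overlapped between groups. Sirt6, a chromatin-bound deacetylase linked to glycolysis and DNA repair, had 7.04 ± 0.866 CPM in DKD and 7.37 ± 0.633 CPM in Control (−0.07 ± 0.18). Sirt7, found in the nucleolus, had 51.5 ± 3.80 and 55.3 ± 9.09 CPM (−0.10 ± 0.14). The class median was −0.07 and depended on the setting, at −0.20 with library totals, −0.20 with the length trend removed, and 0.02 without Control replicate 3 and 0.01 without DKD replicate 2.

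Among the bromodomain readers Brd3 (ENSMUSG00000026918), a BET protein that binds acetylated histone H4, was measured at 34.5, 34.0 and 27.5 CPM in DKD, against 41.8, 42.9 and 39.5 CPM in Control. No DKD library reached the Control range (log2 fold change −0.37 ± 0.12, edgeR adjusted p 0.138, and −0.21 with the length trend removed). Brd7 (ENSMUSG00000031660), a subunit of the PBAF remodelling complex, was measured at 45.6, 47.7 and 42.0 CPM in DKD, against 38.4, 38.0 and 42.2 CPM in Control, where Control replicate 3 lay inside the DKD range (0.19 ± 0.10, edgeR adjusted p 0.322, and 0.07 with library totals). Brd2 (ENSMUSG00000024335), another BET protein, was measured at 171, 195 and 141 CPM in DKD, against 194, 231 and 157 CPM in Control, and the groups overlapped broadly (−0.20 ± 0.19, from −0.34 with library totals to −0.05 without Control replicate 2). Brd9, of the non-canonical BAF complex, had 25.4 ± 1.598 CPM in DKD and 27.1 ± 3.24 CPM in Control (−0.10 ± 0.13). By edgeR 0 of the 4 passed and 1 (25%), Brd3, had an unadjusted p under 0.05, against 22.6% of all genes. DESeq2 and limma-voom called 0.

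Levels of different genes can be set side by side as CPM per kilobase, using the longest coding transcript of the GRCm38 annotation. On that scale Sirt3 (54.3 ± 4.64 in DKD and 42.1 ± 9.85 in Control), Brd2 (36.3 ± 5.73 and 41.7 ± 7.89) and Sirt2 (46.6 ± 2.93 and 37.5 ± 3.42) were the highest of the 35 in Control. They did not differ from one another beyond their spread there. Hdac6 ranked 7 in Control at 18.0 ± 0.841 CPM per kilobase, and its level in DKD was 38.0 ± 7.57. The lowest were Hdac9 (0.107 ± 0.0112 in DKD and 0.180 ± 0.0224 in Control), Hdac4 (1.79 ± 0.138 and 2.02 ± 0.0454) and Kat6b (2.29 ± 0.786 and 3.20 ± 0.279). Per length, p300 transcripts exceeded CBP transcripts in every library, and Hdac1 exceeded Hdac2.

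A scaling factor for a whole library cancels in a ratio between genes, whereas a trend on length or GC content does not. The 8 pairs were chosen after the values were seen, so they are described with no test. The ratio of Kat2a to Kat2b counts per base was 1.06, 0.816 and 1.11 in DKD, against 0.720, 0.670 and 0.603 in Control, so PCAF transcripts exceeded GCN5 transcripts in all Control libraries but in DKD replicate 2 only. The ratio of Hdac6 to Hdac10, the other class IIb enzyme, was 6.98, 4.86 and 7.56 in DKD, against 3.19, 2.69 and 2.64 in Control. The ratio of Sirt2 to Sirt1 was 14.0, 12.9 and 13.5 in DKD, against 8.54, 7.31 and 10.2 in Control. The ratio of Ep300 to Crebbp was 1.35, 1.604 and 1.73 in DKD, against 1.79, 1.90 and 1.79 in Control. The log2 difference of Kat2a to Kat2b was 0.58, and 0.34 with the GC trend removed. That of Sirt2 to Sirt1 was 0.64, against 0.41 with the length trend removed and 0.44 with the GC trend removed. Groups did not overlap for these 4 ratios and overlapped for Kat6a to Kat6b, Hdac1 to Hdac2, Brd2 to Brd3 and Brd7 to Brd9.

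**Figure D3:**
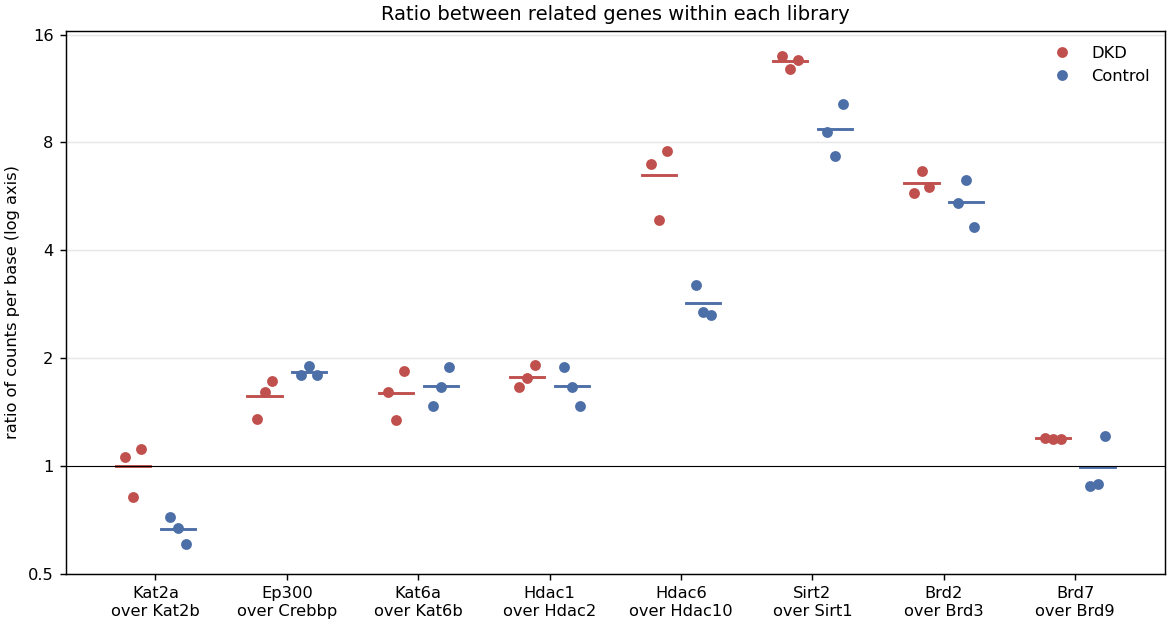
Ratio of counts per base between 8 pairs of related genes within each library, on a log axis, with DKD in red, Control in blue and bars at the mean. The ratios of Kat2a to Kat2b, Hdac6 to Hdac10 and Sirt2 to Sirt1 lie higher in every DKD library, and that of Ep300 to Crebbp lies lower.

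Fold changes in the list ran with transcript length, as they did over all genes. Spearman's correlation of log2 fold change with transcript length was −0.61 across the 35 genes and −0.34 across 15004 genes with at least 1 CPM. These are descriptions across genes that share the same libraries. All 9 members in the longest decile of genes (Kat6a, Kat6b, Ep300, Crebbp, Ncoa1, Ncoa2, Ncoa3, Hdac4 and Hdac9) had a negative log2 fold change, and so had 74.4% of the 1501 genes in that decile, whose median was −0.22. The acetyltransferases had a median length of 7329 bases and the sirtuins of 1794 bases. Set against the median of its own length decile, Ncoa2 was lower by a log2 difference of −0.56, Hdac9 by −0.53 and Kat6a by −0.37, whereas Crebbp was above it by 0.10 and Hdac6 by 1.19. On the same measure 11 of 13 acetyltransferases lay below their decile median and 7 of 11 deacetylases above it, and 4 of 7 sirtuins and 3 of 4 readers below. With the length trend removed in each library, the medians were −0.13 for acetyltransferases, 0.04 for deacetylases, −0.20 for sirtuins and −0.13 for readers, beside −0.03 for all genes, and 3 of the 35 (8.57%) had an unadjusted p under 0.05, against 19.3% of all genes in that fit.

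**Figure D4:**
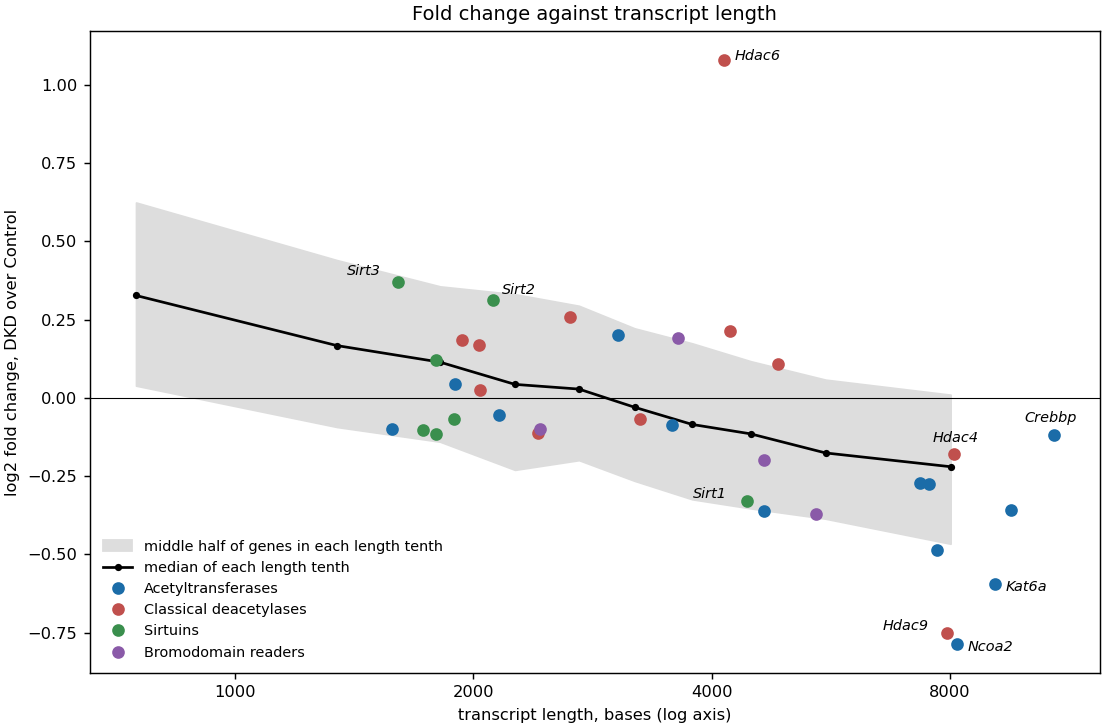
Log2 fold change (DKD over Control) against transcript length on a log axis, with the median (line) and middle 50% (grey) of all genes in each length decile and the 35 genes as points coloured by class. Hdac6 lies 1.19 above the median of its length decile, and the 9 longest-decile members all lie below 0, with Crebbp and Hdac4 above the median of their decile and the other 7 below it.

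Partner subunits and related genes were taken from 6 lists chosen for what the genes do. In the counts that follow, the shares of all genes are 1.16% called by edgeR, 22.6% at an unadjusted p under 0.05 and 13.7% called by DESeq2. Among the other acetyl-lysine readers 26 were tested and 1 rose by edgeR (3.85%), while 5 had a higher and 21 a lower fitted level and the median was −0.08. At an unadjusted p under 0.05 there were 8 (30.8%), and DESeq2 called 6 (23.1%). Those 6 were Trim24 and Atad2 (0.55 ± 0.20), higher in DKD, and Pbrm1 (−0.64 ± 0.13), Bptf (−0.70 ± 0.17), Taf1 (−0.41 ± 0.11) and Smarca2 (−1.19 ± 0.33), lower in DKD. Smarca2 had 71.8, 71.9 and 54.9 CPM in DKD, against 98.4, 118 and 238 CPM in Control, where Control replicate 3 lay far above the others. The gene that rose was Trim24, a bromodomain protein that also marks p53 for degradation, at 87.6, 76.0 and 80.3 CPM in DKD, against 43.8, 46.8 and 40.2 CPM in Control (log2 fold change 0.90 ± 0.11, edgeR adjusted p 0.0263). All its DKD libraries lay above all Control libraries, and 12 of 18 alternatives passed. Among those it did not pass were the fits without Control replicate 1, Control replicate 2, DKD replicate 1 or DKD replicate 3. There its edgeR adjusted p-values were 0.129, 0.0950, 0.112 and 0.0854, and the fits called 1, 13, 4 and 10 of all genes. Trim24 did not pass in the fit with library totals either, at 0.0668.

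Among 21 genes of acetyl-CoA and NAD supply 1 fell by edgeR (4.76%), with 9 higher and 12 lower fitted levels and a median of −0.09. At an unadjusted p under 0.05 there were 5 (23.8%), and DESeq2 called 3 (14.3%). Besides the gene that fell these were Acly (−0.66 ± 0.13), which makes acetyl-CoA from citrate, and Nampt (0.82 ± 0.26), which makes a precursor of NAD. Nampt had 180, 185 and 329 CPM in DKD, where DKD replicate 3 lay far above the others, against 117, 123 and 154 CPM in Control. The gene that fell was Acss1, the mitochondrial acetyl-CoA synthetase, at 126, 119 and 122 CPM in DKD, against 213, 185 and 213 CPM in Control (−0.73 ± 0.12, edgeR adjusted p 0.0400). No DKD library reached the Control range, and 9 of 18 alternatives passed. Of the 6 fits that each leave out 1 library, the one without Control replicate 3 passed, at 0.0388. The other 5 gave edgeR adjusted p-values from 0.0640 without DKD replicate 2 to 0.153 without DKD replicate 1. Over all genes, the 6 fits called from 1 to 386 genes.

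In the other 4 lists edgeR called 0 genes. Of 31 subunits of the SAGA, ATAC and NuA4 acetyltransferase complexes, 14 had higher and 17 lower fitted levels, with a median of −0.10. There, 11 (35.5%) had an unadjusted p under 0.05 and DESeq2 called 2 (6.45%), Morf4l2 (0.43 ± 0.12) and Zzz3 (−0.52 ± 0.15, and −0.31 with the length trend removed). Of 17 partners of the MYST enzymes 2 were higher and 15 lower, with a median of −0.15, 5 (29.4%) at an unadjusted p under 0.05 and 2 (11.8%) called by DESeq2, Jade1 (−0.55 ± 0.13) and Ing4 (0.58 ± 0.15). Jade1 and Ing4 are both subunits of the Kat7 complex, and they were measured in opposite directions. Of 26 corepressor subunits 15 were higher and 11 lower, with a median of 0.06, 5 (19.2%) at an unadjusted p under 0.05 and 3 (11.5%) called by DESeq2. Mbd2 (0.41 ± 0.11, and 0.27 with library totals), a reader of methylated DNA, and Brms1 (1.77 ± 0.46) were higher in DKD. Brms1 had 6.51, 2.12 and 2.83 CPM in DKD, against 1.03, 1.33 and 1.00 CPM in Control, and its log2 fold change was 1.14 without DKD replicate 1. Chd3 (−1.12 ± 0.33), a remodelling ATPase of NuRD, was lower, at 181, 193 and 154 CPM in DKD, against 266, 279 and 602 CPM in Control, where Control replicate 3 lay far above the others.

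Of 17 substrates and responders of sirtuins and deacetylases, 8 were higher and 9 lower, with a median of −0.02, 4 (23.5%) at an unadjusted p under 0.05 and 2 (11.8%) called by DESeq2. Those 2 were Ppara, a nuclear receptor of fatty acid oxidation (13.1 ± 2.59 CPM in DKD and 29.6 ± 6.55 CPM in Control, −1.18 ± 0.21, edgeR adjusted p 0.0527) and Trp53, which encodes p53 (48.1 ± 2.46 and 35.4 ± 4.16 CPM, 0.44 ± 0.12, edgeR adjusted p 0.0992). Limma-voom called 0 in each of these 4 lists.

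**Figure D5:**
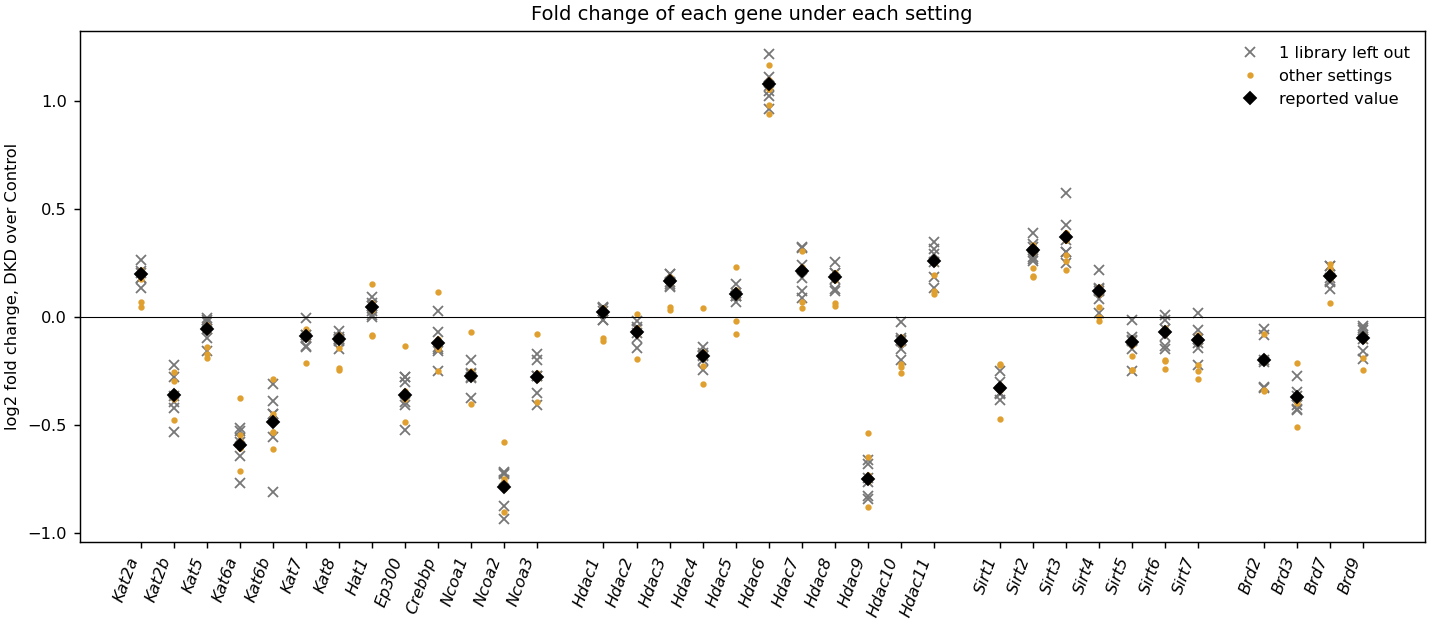
Log2 fold change of each of the 35 genes as reported (black diamonds), with 1 library left out (grey crosses) and under the other settings (orange points). Hdac6 stays between 0.94 and 1.22, Ncoa2 between −0.94 and −0.58 and Hdac9 between −0.88 and −0.54, while genes near 0 such as Hdac1 and Hat1 cross it.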

How the data were processed

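Total RNA from glomeruli was enriched for polyadenylated RNA, made into dUTP libraries and sequenced in paired reads, per the labels' protocols. The submitters' processing notes name fastp, HISAT2, StringTie and edgeR with build GRCm39. Their versions, the annotation and the strand setting are not stated in them. What the authors deposited is a table of raw counts, not normalized, for 55401 Ensembl genes (30837 above 0).

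Symbols, transcript lengths and overlaps came from the GENCODE annotation on GRCm38, and 260 identifiers had no match there. Genes were kept by filterByExpr (minimum count 10), which left 19717. TMM factors scaled the counts, and edgeR 4.0.16 (R 4.3.3) gave the quasi-likelihood test, group as the only term, with Benjamini-Hochberg adjustment over all genes tested and 0.05 as the threshold. Standard errors are the log2 fold change over the square root of F. The biological coefficient of variation was 33.2%. Relative counting error was largest for Hdac9, with 51 to 67 counts in DKD and 101 to 134 in Control.

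The 18 alternatives were RLE and upper quartile factors, library totals, no filter, a filter of 1 CPM in 3 libraries, limma-voom (limma 3.58.1), DESeq2 1.42.0, a block for the replicate number, robust dispersion, a trend on transcript length or GC content removed through offsets (5 degrees of freedom), mitochondrial genes with their nuclear copies left out, and each of the 6 libraries left out. The procedure was tested on simulated data. There it called 54 of 100 genes changed by log2 1 and 96 of 100 changed by log2 2, with 7 unchanged genes among 157 called. A gene that did not pass may therefore still differ between groups. The members and gene lists were chosen with earlier results of these data known. Values per library are given for genes past the threshold and for the 3 of smallest p in the other classes, and Hdac9 was added after its values were seen. From each related list the text names genes past the threshold, otherwise the 2 of smallest p. Atad2, Pbrm1, Bptf, Taf1, Smarca2, Acly, Nampt and Chd3, called by DESeq2, were added after their values were seen.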

Additional observations from a re-analysis of the deposited data

How the results depend on the processing

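The count of genes called over all genes, 228, was 516 with the 1 CPM filter, 56 with no filter, 2483 with DESeq2 and 0 with the replicate block (edgeR), and it ran from 1 to 386 with 1 library left out. Of the 35 members, 1 was called as reported. The count was 2 with the 1 CPM filter (Ncoa2 and Hdac6), 3 with DESeq2, and 0 with no filter, with the replicate block and with the GC trend removed, and 0 to 3 with 1 library left out. In those 3 fits with 0, 9 (25.7%, against 15.4% of all genes), 6 (17.1%, against 16.8%) and 5 (14.3%, against 20.4%) of the 35 had an unadjusted p under 0.05. Hdac6 had an adjusted p of 0.0731 with no filter. The labels do not say whether replicate numbers pair the samples. Deviations of same-numbered libraries from their group means correlated at −0.183, 0.066 and −0.224, which shows no pairing, but so few correlations cannot exclude it. The block gave Hdac6 1.06 (log2) at an edgeR adjusted p of 0.144, Trim24 0.143 and Acss1 0.176 as adjusted p.

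Of 630 values of members over the alternatives, 601 kept direction and side of the threshold, 17 changed sign, 5 passed newly and 7, all of Hdac6, no longer passed. All members but Hdac6 were uncalled as reported, so for them keeping the side means staying uncalled, and the 601 says little about calls. Of the 18 Hdac6 values, 11 passed. Sign changes were all near 0. With library totals Hat1 was −0.082, Hdac1 −0.113, Hdac5 −0.019 and Sirt4 −0.001. With the length trend removed Hat1 was −0.089, Crebbp 0.117, Hdac1 −0.099, Hdac4 0.043 and Sirt4 −0.019. With the GC trend removed Hdac2 was 0.015 and Hdac5 −0.078. Over the fits that leave out 1 library, Hdac1 ran from −0.014 (Control replicate 3 or DKD replicate 3 left out) to 0.045, Sirt7 from −0.22 to 0.017 (Control replicate 3), Sirt6 from −0.147 to 0.012 (DKD replicate 2), Crebbp from −0.249 to 0.026 and Hat1 from −0.001 to 0.091 (both DKD replicate 3). The cause of these changes was not tested. With 3 libraries a group, small differences between groups cannot be told from the spread between libraries, and Hdac9 rests on low counts.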
